A study of Mus musculus with 6 samples.

Results

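The enzymes that make the sugar donor UDP-GlcNAc, and those that put O-GlcNAc on proteins and take it off, were examined at the transcript level in hematopoietic stem and progenitor cells with and without Oga. The set has 10 genes out of 53445 loci in the deposited table, and they were chosen by symbol, with the locus of largest length taken where a symbol is listed at several loci. They are Ogt and Mgea5 (the former symbol of Oga, used in the table), Gfpt1 and Gfpt2, Gnpnat1, Pgm3, Uap1 and Uap1l1, Nagk and Amdhd2. All 10 genes had enough reads to be tested. RNA-Seq was performed on LSK cells (Lin-Sca+Kit+), the marrow fraction that holds stem cells and multipotent progenitors, sorted from 3 OgaVav-Cre and 3 wildtype mice, with 1 mouse for each library. All mice were female, C57BL/6 and about 12 weeks old. OgaVav-Cre mice carry floxed Oga alleles and the Vav-iCre transgene, which is active throughout the hematopoietic lineage, so that stem cells and their blood progeny are both targeted. The labels do not say whether the wildtype mice carried Cre or a floxed allele.

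O-GlcNAc is a single sugar, N-acetylglucosamine, attached to serine and threonine of nuclear and cytoplasmic proteins. A single enzyme, OGT, adds it and a single enzyme, OGA, removes it, and this addition and removal is called O-GlcNAc cycling. The donor, UDP-GlcNAc, is the end product of the hexosamine biosynthetic pathway, which draws on glucose, glutamine, acetyl-CoA and UTP and is for this reason regarded as a readout of nutrient supply. Blood stem cells and progenitors depend on balanced cycling for their maintenance. A rise in O-GlcNAc is known to be met in many cell types by less OGT and more OGA, in part through introns of both transcripts that are kept or spliced out.

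Promoter windows are shown for the 3 genes whose libraries separated by genotype in the comparison described below, Ogt, Mgea5 and Amdhd2. They come from RefSeq on GRCm38.p6, not the mm9 build of the deposited table, and run from 250 bases before to 50 bases after the annotated start. RefSeq entries were found for 8 of the 10 genes, in 9 windows, with 2 windows for Ogt, of which the upstream one is printed. Gnpnat1 and Uap1l1 had no entry. Capitals mark each CACGTG (the E-box bound by Myc and related factors) and each GGGCGG or its complement CCGCCC (the GC box).
Ogt, chrX:101639801-101640100, plus strand: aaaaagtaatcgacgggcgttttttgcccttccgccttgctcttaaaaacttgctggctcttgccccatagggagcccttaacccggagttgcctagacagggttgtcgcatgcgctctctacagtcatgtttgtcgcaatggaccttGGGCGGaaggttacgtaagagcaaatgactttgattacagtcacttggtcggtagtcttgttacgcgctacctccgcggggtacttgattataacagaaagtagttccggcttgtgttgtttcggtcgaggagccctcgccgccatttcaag
Mgea5 (Oga), chr19:45783504-45783803, minus strand: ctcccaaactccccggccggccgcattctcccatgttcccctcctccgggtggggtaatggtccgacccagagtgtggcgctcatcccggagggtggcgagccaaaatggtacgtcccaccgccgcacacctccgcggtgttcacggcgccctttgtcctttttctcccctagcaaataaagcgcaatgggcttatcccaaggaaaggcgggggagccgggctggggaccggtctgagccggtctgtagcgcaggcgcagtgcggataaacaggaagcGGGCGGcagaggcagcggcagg
Amdhd2, chr17:24163684-24163983, minus strand: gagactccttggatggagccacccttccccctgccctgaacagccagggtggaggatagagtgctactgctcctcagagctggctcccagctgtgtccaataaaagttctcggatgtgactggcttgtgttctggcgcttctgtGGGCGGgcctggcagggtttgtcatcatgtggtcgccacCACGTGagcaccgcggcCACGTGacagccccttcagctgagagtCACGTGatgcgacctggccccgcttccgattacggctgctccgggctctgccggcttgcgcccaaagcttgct
Of 4 motifs searched on both strands, the E-box CACGTG was found in the window of 1 gene of the set. The Amdhd2 window held it 3 times, starting 67, 50 and 23 bases before the annotated start. Among all 32851 promoter windows in the table, 7.15% held CACGTG at least once and 29 windows (0.0883%) held it 3 times or more. The GC box was found in the windows of all 8 genes with an entry and in 35.7% of all windows. The printed Ogt, Mgea5 and Amdhd2 windows each held 1, and the Uap1 window held 6. TGACGTG, the core of an element bound by XBP1 and ATF6, was found in the Uap1 window and in 2.01% of all windows. CCAAT was found in the windows of Uap1, Gfpt1, Pgm3, Gfpt2 and Amdhd2, and in 37.4% of all windows. These are matches of letters alone, and no binding was measured. The Amdhd2 window may reach into the upstream gene Atp6v0c, which ends 99 bases before Amdhd2 in mm9. Matches far from the Amdhd2 start may therefore lie in that gene.

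The libraries held 19318056 to 27064389 counted reads. Markers of the gate were high. Kit, the receptor for stem cell factor, was at 250.7 to 601 CPM (counts per 1e6 counted reads, scaled by edgeR's TMM method). Ly6a, which encodes Sca-1, was at 218, 114 and 100 CPM in OgaVav-Cre replicates 1, 2 and 3. In wildtype replicates 1, 2 and 3 Ly6a was at 48.4, 122 and 42.3 CPM. The log2 fold change of OgaVav-Cre over wildtype was 1.03 (SE 0.456) for Ly6a and -0.26 (SE 0.294) for Kit. For both genes the libraries of the genotypes overlapped. Markers of mature blood cells were not absent. The 7 lineage-positive markers Cd3e, Cd4, Cd8a, Ms4a1, Itgam, Ly6g and Klrb1c summed to 95.8 to 416 CPM in OgaVav-Cre and 99.3 to 269 CPM in wildtype libraries before TMM scaling, and Ly6g in wildtype replicate 1 was the single value at 0. After TMM scaling, Ms4a1 exceeded Ly6a in OgaVav-Cre replicate 3 (228 CPM) and in wildtype replicates 1 and 3 (62.4 and 148 CPM). In the other libraries Ms4a1 was below Ly6a. Of the 7 lineage-positive markers, 6 had a log2 fold change above 0 and 1 (Klrb1c) below it, with a median of 0.61. The largest was that of Cd4, 1.41 (SE 0.582). The libraries of both genotypes overlapped for all 7. The loci Ighm, Igkc and Igj together took 1.17 to 9.88% of the counts in OgaVav-Cre and 1.36 to 5.48% in wildtype libraries. They belong to a list of 10 plasma cell markers, each of which was highest in OgaVav-Cre replicate 1. All 10 had a log2 fold change above 0 (median 0.68), beside 11119 of the 22032 loci tested. The libraries of both genotypes overlapped for all 10, and 0 were called changed in the comparison described below. In RNA from sorted populations, fewer cells of a type and less RNA per cell cannot be told apart.

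**Figure D1:**
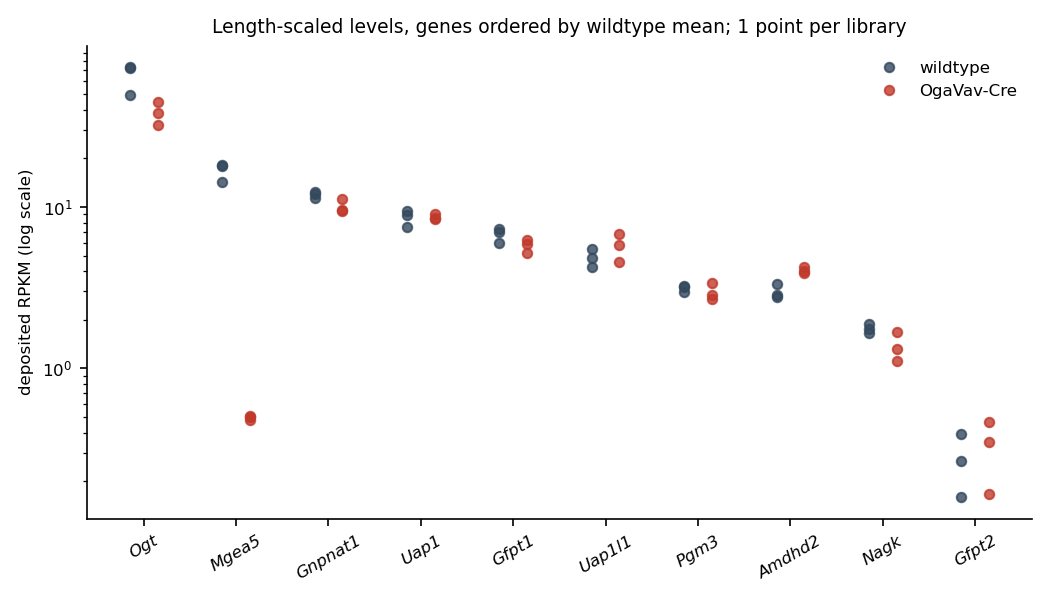
Deposited RPKM (reads scaled by locus length and library depth, log scale) of the 10 enzyme genes in each library, wildtype in dark blue and OgaVav-Cre in red, with genes ordered by the wildtype mean. Ogt was at 49.3 to 73.6 RPKM in wildtype cells and Gfpt2 at 0.160 to 0.395 RPKM, and Mgea5 went from the second place in wildtype to the ninth in OgaVav-Cre cells.

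Levels were first compared between the enzymes in wildtype cells, per length, with the deposited RPKM. Ogt was the most abundant at 65.2 ± 13.8 RPKM (SD, n = 3), above 96.7% of all loci tested. Mgea5 followed at 16.8 ± 2.15 RPKM, so that the writer exceeded the eraser by a ratio of 3.97 ± 1.20 (SD, n = 3) at the transcript level. Gnpnat1, the acetyltransferase of the pathway, was at 11.9 RPKM (range 11.4 to 12.4), and Uap1, the pyrophosphorylase that makes UDP-GlcNAc, at 8.63 ± 1.03 RPKM. Gfpt1, the glutamine:fructose-phosphate amidotransferase that commits glucose to the pathway and limits its flux, was at 6.74 ± 0.689 RPKM. Uap1l1, a paralog of Uap1, was at 4.86 ± 0.636 RPKM. Pgm3, the mutase between the acetyltransferase and the pyrophosphorylase, was at 3.13 ± 0.154 RPKM, and Amdhd2, a deacetylase that runs the pathway backward, was at 2.98 ± 0.301 RPKM. Nagk, the kinase that salvages free GlcNAc, was at 1.77 ± 0.113 RPKM. Gfpt2, the other amidotransferase, was lowest at 0.274 ± 0.118 RPKM, which is above only 8.43% of the loci tested. Of the neighbours in this order, only Pgm3 and Amdhd2 had overlapping ranges among the wildtype libraries. The ratio of Gfpt1 to Gfpt2 was 27.3 ± 9.52, and that of Uap1 to Uap1l1 was 1.804 ± 0.384 (SD, n = 3 for both), so that Gfpt1 was the main amidotransferase transcript of LSK cells.

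In OgaVav-Cre cells the order differed at 2 places. Mgea5 dropped to 0.496 ± 0.0139 RPKM (SD, n = 3), next above Gfpt2 at 0.326 ± 0.149 RPKM. Amdhd2, at 4.06 ± 0.183 RPKM, stood above Pgm3, at 2.98 ± 0.373 RPKM, and the ranges of both genes no longer overlapped. Gfpt1 and Uap1l1, at 5.79 ± 0.556 and 5.74 ± 1.14 RPKM, had overlapping ranges in this genotype. The ratio of Ogt to Mgea5 was 76.8, 63.5 and 92.6 in OgaVav-Cre replicates 1, 2 and 3, against 2.74, 4.03 and 5.14 in wildtype replicates 1, 2 and 3. Its denominator is the targeted gene, with 104 to 110 reads in each OgaVav-Cre library. Some of these reads may come from an antisense locus that shares exon bases with Mgea5, described below.

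The genotypes were then compared gene by gene, with edgeR's quasi-likelihood test over 22032 loci. P-values were adjusted over all of these loci by the Benjamini-Hochberg procedure. A locus was called changed at an adjusted p-value below 0.05 and a log2 fold change below -1 or above 1. These are the cutoffs of the study, which applied them to DESeq2's Wald test instead. Of the 10 genes, 1 was called lower (Mgea5) and 0 were called higher, while over all loci tested 6 (0.0272%) were called lower and 1 (0.00454%) higher. The 6 loci called lower include Mgea5 itself and 3 loci that overlap it, described below. At an unadjusted p below 0.05, 2 genes were lower (Mgea5 and Ogt) and 1 was higher (Amdhd2), while 6.27% of all loci were lower and 4.38% higher by the same rule. DESeq2's Wald test and limma-voom also called 1 of the 10 genes lower and 0 higher. Over all loci tested, DESeq2 called 82 lower and 34 higher, and limma-voom 5 lower and 0 higher. The libraries of both genotypes did not overlap for the same 3 genes, of which 2 were lower and 1 higher in OgaVav-Cre cells, while 9.97% of all loci were lower and 7.5% higher without overlap on the CPM scale. The median log2 fold change of the 9 genes other than Mgea5 was -0.0069, against 0.0041 over all loci tested.

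**Figure D2:**
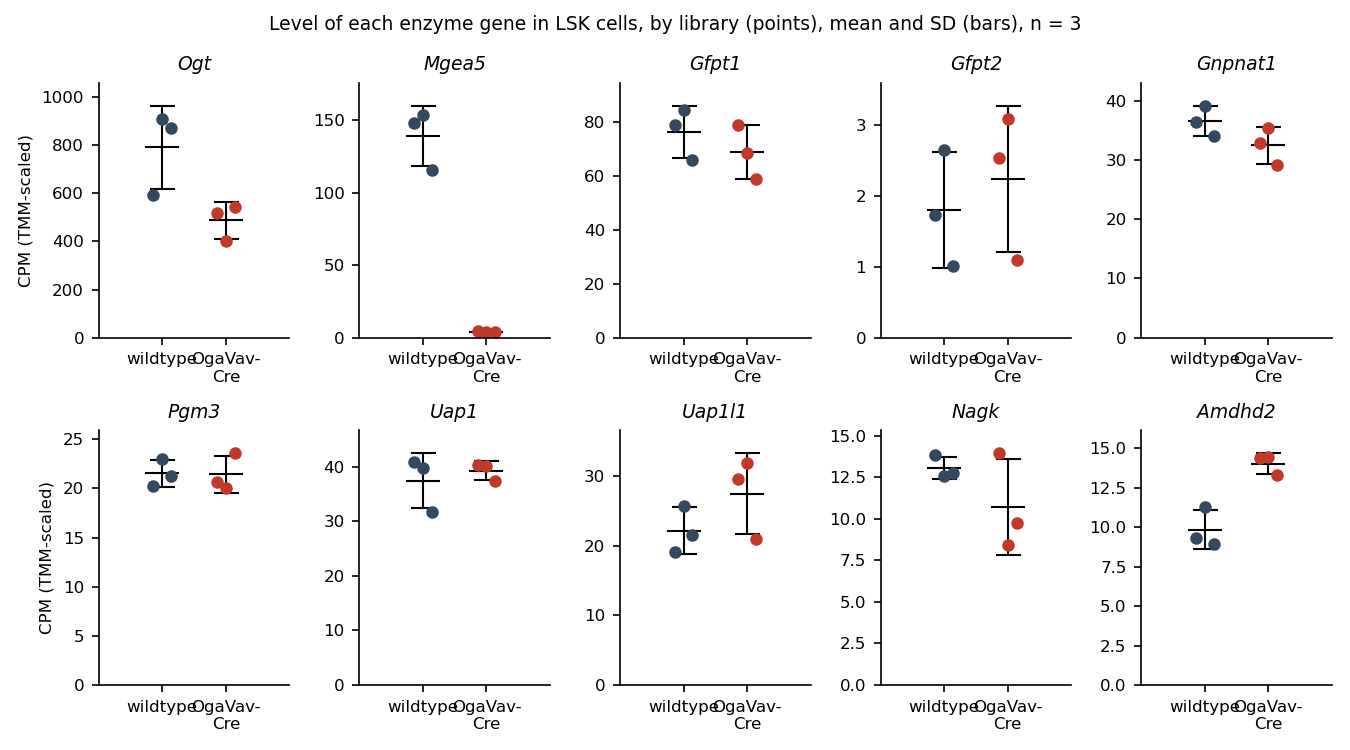
CPM of each enzyme gene (TMM-scaled, each panel starting at 0) in 3 wildtype and 3 OgaVav-Cre libraries, with 1 point for each library and bars for the mean and SD. Mgea5 was at 116 to 154 CPM in wildtype and 4.01 to 4.604 CPM in OgaVav-Cre libraries, Ogt and Amdhd2 separated by genotype with smaller gaps, and the other 7 genes overlapped.

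Mgea5, the targeted gene, checks the labels. In mm9 it occupies bases 45824749 to 45858269 of chromosome 19, minus strand, and has 16 exons in the deposited table. OgaVav-Cre replicates 1, 2 and 3 held 4.604, 4.31 and 4.01 CPM of it, and wildtype replicates 1, 2 and 3 held 148, 154 and 116 CPM. Every OgaVav-Cre library was low and the libraries of each genotype were close to each other. In OgaVav-Cre cells 3.09% of the wildtype mean was left, or -5.01 as a log2 fold change (standard error, SE, 0.167, 95% interval -5.40 to -4.63). The Benjamini-Hochberg adjusted p of Mgea5 was 5.88e-05 in the quasi-likelihood test of edgeR.

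The table lists 3 further loci over Mgea5, and all 3 were called lower by the same test. D19Ertd409e, which spans nearly the whole of Mgea5 on the same strand and counts largely the same transcript, was lower by a log2 fold change of -5.08 (SE 0.183). E330018D03Rik, of 2980 bases inside Mgea5 on the same strand, shares 86 bases (2.89%) with Mgea5 exons and is otherwise intronic. Wildtype replicates 1, 2 and 3 held 512, 678 and 610 of its reads, and OgaVav-Cre replicates 1, 2 and 3 held 0, 0 and 3. Against a floor of 3 reads in each OgaVav-Cre library it was at least 235-fold lower. The third locus, also listed as Mgea5, lies on the plus strand from 45823998 to 45826800 and has the coordinates of the GENCODE transcript Gm15491-001, an antisense RNA. Of its 751 exon bases, 551 coincide with Mgea5 exons, 170 lie beyond the end of Mgea5 and 84 coincide with exons of the neighbouring gene Npm3. The 3 OgaVav-Cre libraries held 4.96, 4.86 and 4.63 CPM of it, against 22.5, 23.1 and 16.6 CPM in wildtype libraries. The log2 fold change of this antisense locus was -2.11 (SE 0.193), with an edgeR adjusted p of 0.0223. Its reads were 0.149 ± 0.0047 of those at the Mgea5 locus in wildtype and 1.120 ± 0.0395 in OgaVav-Cre cells (SD, n = 3 for both). Counting is not stated to use strand, so that reads from Mgea5, this antisense RNA and Npm3 cannot be told apart in the shared bases. With both loci named Mgea5 summed, the log2 fold change of Mgea5 was -4.13.

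Ogt, the writer, occupies bases 98835399 to 98879690 of chromosome X, plus strand, in mm9. It was at 517, 400 and 543 CPM in OgaVav-Cre replicates 1, 2 and 3, and at 593, 906 and 869 CPM in wildtype replicates 1, 2 and 3. All OgaVav-Cre libraries were below all wildtype libraries, with wildtype replicate 1 close to OgaVav-Cre replicate 3. The mean was 486.5 ± 76.2 CPM in OgaVav-Cre and 789 ± 171 CPM in wildtype cells (SD, n = 3), and the OgaVav-Cre mean was 61.6% of that of wildtype. This is a log2 fold change of -0.70 (SE 0.205, 95% interval -1.17 to -0.22). The adjusted p of Ogt in the edgeR fit was 0.412, so that Ogt did not pass the test. By unadjusted p it held rank 502 of the 22032 loci. In a two-sided exact permutation test on any single gene, 3 against 3 libraries cannot give a p below 0.1. With 10119 to 20576 reads of Ogt in each library, the counting error was small against the spread between mice. The adjusted p was lowest with DESeq2's Wald test, at 0.0816.

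Ogt kept its direction with an unadjusted p below 0.05 in all 18 alternative fits, and in none of them was it called. Leaving out 1 library at a time gave log2 fold changes between -0.87 (without wildtype replicate 1) and -0.57 (without OgaVav-Cre replicate 2). The share of counts on immunoglobulin loci and the summed level of the lineage-positive markers differed between libraries of 1 genotype, as given above. With the first as a covariate the log2 fold change of Ogt was -0.70 (SE 0.206), and with the second it was also -0.70 (SE 0.194). GENCODE lists 7 transcripts of Ogt on mm9, of which 2 are protein-coding, 3 retain an intron and 2 are processed transcripts, and reads summed over the locus do not separate them. Inside an Ogt intron, 8430425A16Rik on the same strand held 0, 7 and 15 reads in the OgaVav-Cre and 6, 3 and 1 in the wildtype libraries, too few for it to be tested.

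**Figure D3:**
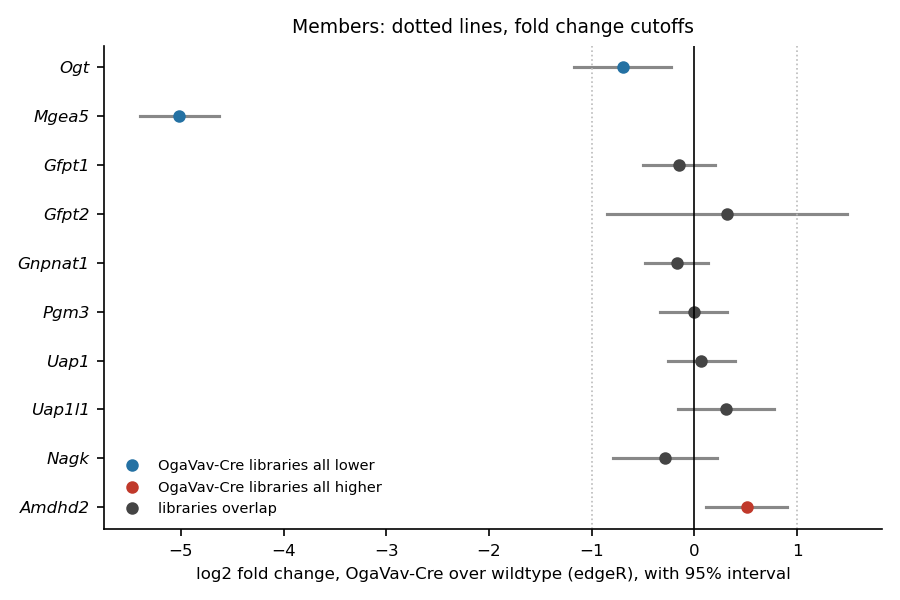
Log2 fold change of OgaVav-Cre over wildtype for each enzyme gene from edgeR, with its 95% interval as a line and dotted lines at the fold change cutoffs. The interval of Mgea5 (-5.40 to -4.63) lies beyond the lower cutoff, those of Ogt (-1.17 to -0.22) and Amdhd2 (0.12 to 0.91) exclude 0, and the other 7 include 0.

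Gfpt1 and Gfpt2 control entry into the pathway. Gfpt1, on chromosome 6, was at 59.1 to 79.1 CPM in OgaVav-Cre and 65.8 to 84.5 CPM in wildtype libraries. The difference on the log2 scale was -0.15 (SE 0.151), and the 95% interval allows a level between 0.708 and 1.15 times that of wildtype. Gfpt2, on chromosome 11, had 30 to 78 reads in OgaVav-Cre and 24 to 51 reads in wildtype libraries, and its 95% interval of 0.555 to 2.80 times the wildtype level leaves its direction undetermined. Its level was 2.23 ± 1.03 CPM in OgaVav-Cre and 1.795 ± 0.816 CPM in wildtype cells (SD, n = 3), and the log2 fold change ran from 0.0094 to 0.71 when 1 library was left out. Neither passed the test.

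Gnpnat1, Pgm3 and Uap1 act in the later steps toward UDP-GlcNAc, and Uap1l1 is given with them as the paralog of Uap1. Gnpnat1, on chromosome 14, was at 32.8, 35.3 and 29.1 CPM in the OgaVav-Cre libraries, compared with 36.4, 39.0 and 34.1 CPM in wildtype replicates 1, 2 and 3. Its groups overlapped on this scale, with a log2 fold change of -0.17 (SE 0.133, 95% interval -0.48 to 0.14). On the deposited RPKM, scaled by 1 divisor for each library, the same gene was at 9.62, 11.3 and 9.43 in OgaVav-Cre and 11.9, 12.4 and 11.4 in wildtype replicates, and the groups did not overlap. On that scale 3 of the 10 genes (Mgea5, Ogt and Gnpnat1) were lower and 1 (Amdhd2) higher without overlap, against 12.6% of all loci lower and 4.97% higher, so that the lower share of all loci is larger under this scaling. Library totals with no TMM factor moved the median log2 fold change of all loci to -0.11, and gave Gnpnat1 its lowest value, -0.29. Styx, on the other strand, runs across the whole of Gnpnat1 with 0 exon bases in common, and AK034901 shares 168 bases with its exons. Neither passed the test.

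Pgm3, on chromosome 9, was at 20.1 to 23.6 CPM in OgaVav-Cre and 20.3 to 23.0 CPM in wildtype libraries. On the log2 scale it differed by -0.0069 (SE 0.142), and its 95% interval was 0.792 to 1.25 times the wildtype level. The gene Dopey1 on the opposite strand shares 1439 exon bases with Pgm3 at their 3' ends, and reads there could belong to either. Dopey1 differed by -0.06 on the log2 scale (SE 0.131). Uap1, on chromosome 1, was at 37.4 to 40.4 CPM in OgaVav-Cre and 31.7 to 40.9 CPM in wildtype libraries, with a 95% interval of 0.839 to 1.31 times the wildtype level. LOC640502, a locus on the same strand, covers 2722 of the 3779 exon bases of Uap1 and therefore counts many of the same reads, and its log2 fold change of 0.09 (SE 0.162) is near that of Uap1, 0.07 (SE 0.139). Uap1l1, on chromosome 2, was at 29.6, 32.0 and 21.0 CPM in the OgaVav-Cre libraries, compared with 19.2, 25.8 and 21.6 CPM in wildtype replicates 1, 2 and 3. OgaVav-Cre replicate 3 was low among its group and below 2 wildtype libraries. The log2 fold change of Uap1l1 was 0.31 (SE 0.201), and without OgaVav-Cre replicate 3 it was 0.47.

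Nagk and Amdhd2 work on GlcNAc and its phosphate outside the forward pathway. Nagk, on chromosome 6, was at 13.9, 8.45 and 9.76 CPM in the OgaVav-Cre libraries, compared with 13.8, 12.6 and 12.8 CPM in wildtype replicates 1, 2 and 3. OgaVav-Cre replicate 1 was above all wildtype libraries and the other 2 were below them. Its log2 fold change was -0.29 (SE 0.219, 95% interval -0.79 to 0.22), and it was -0.52 without OgaVav-Cre replicate 1. The neighbour Paip2b overlaps the span of Nagk by 596 bases on the opposite strand, with 0 exon bases in common in GENCODE.

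Amdhd2, whose promoter holds the 3 E-boxes shown above, occupies bases 24292800 to 24300733 of chromosome 17, minus strand, in mm9. It was at 14.4, 14.4 and 13.3 CPM in OgaVav-Cre replicates 1, 2 and 3, and at 9.31, 11.3 and 8.95 CPM in wildtype replicates 1, 2 and 3. All OgaVav-Cre libraries were above all wildtype libraries. The OgaVav-Cre mean was 142% of the wildtype mean, a difference of 0.51 on the log2 scale (SE 0.170, 95% interval 0.12 to 0.91). Amdhd2 did not pass the test either, with an edgeR adjusted p of 0.416. Its unadjusted p stayed below 0.05 in 15 of 18 alternative fits and was above it without OgaVav-Cre replicate 1, without OgaVav-Cre replicate 2 and without wildtype replicate 3. With the immunoglobulin share as a covariate the log2 fold change was 0.47, and with the lineage-positive marker level it was 0.51. Each library held 199 to 365 reads of Amdhd2. Atp6v0c, a subunit gene of the vacuolar proton pump chosen after its values were seen, ends 99 bases upstream of Amdhd2 on the same strand. It was at 98.3 to 122 CPM in OgaVav-Cre and 93.1 to 102 CPM in wildtype libraries, with a log2 fold change of 0.23 (SE 0.126), and its part in the Amdhd2 result was not tested. As a ratio of RPKM within each library, which no library scaling can alter, Gfpt1 to Amdhd2 was 1.605, 1.39 and 1.30 in OgaVav-Cre and 2.47, 2.18 and 2.14 in wildtype replicates 1, 2 and 3. This pair sets the committing enzyme against the enzyme that reverses a later step, and was chosen after its values were seen. The ratio reuses the Amdhd2 reads compared above, so it is not a separate test of that difference.

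**Figure D4:**
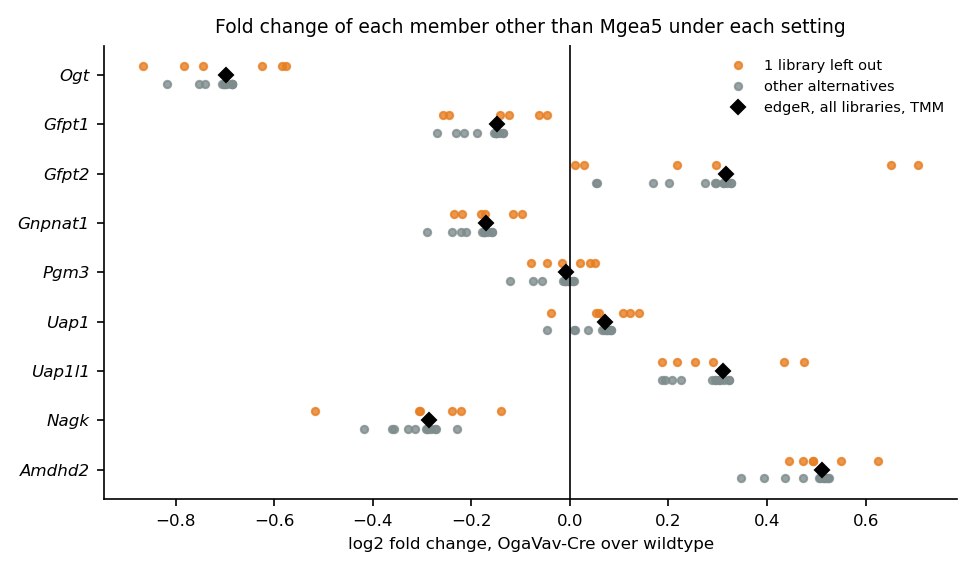
Log2 fold change of the 9 genes other than Mgea5 under edgeR with all libraries (diamonds), with 1 library left out (orange) and under the other tests, scalings, filters and covariates (grey). Ogt lies between -0.87 and -0.57 and Amdhd2 between 0.35 and 0.62 in every setting, and the points of Pgm3 and Uap1 fall on both sides of 0.

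The wider pathway was read from a list of 26 genes that bring glucose and glutamine in, lead hexosamines away, carry UDP-sugars or use UDP-GlcNAc in other reactions. Of these 24 could be tested, and 0 were called lower and 0 higher by edgeR. By DESeq2's Wald test and limma-voom the counts were also 0 and 0. The hyaluronan synthase Has1 had no reads in any library and Has2 was near the floor. At an unadjusted p below 0.05, 2 of the 24 were lower and 0 higher, beside 6.27% and 4.38% of all loci. This count turned on single libraries. Without OgaVav-Cre replicate 3 it was 0 lower and 1 higher, and without wildtype replicate 2 it was 0 and 0. Without OgaVav-Cre replicate 1 or wildtype replicate 3 it was 1 and 0, and without wildtype replicate 1 it was 3 and 1. The genes lower with all libraries were Gnpda2, a deaminase that returns glucosamine phosphate to glycolysis, and Slc35b4, a carrier of UDP-GlcNAc and UDP-xylose into the secretory pathway, both outside the naming rule and given because the count is small. Gnpda2 was at 19.1, 27.5 and 20.3 CPM in the OgaVav-Cre libraries, compared with 27.6, 30.1 and 37.3 CPM in wildtype replicates 1, 2 and 3, with a log2 fold change of -0.51 and an adjusted p of 0.445 in the edgeR fit. OgaVav-Cre replicate 2 was close to wildtype replicate 1. Slc35b4 was at 70.6, 69.8 and 63.9 CPM in the OgaVav-Cre libraries, compared with 85.6, 94.6 and 80.7 CPM in wildtype replicates, with a log2 fold change of -0.35 and an adjusted p of 0.412 by the same edgeR test. The median log2 fold change of the 24 genes was -0.015. Without overlap of the libraries, 4 were lower (Gls2, Gnpda2, Slc35b4 and Alg13) and 2 higher (Hk2 and Gne), beside 9.97% and 7.5% of all loci.

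**Figure D5:**
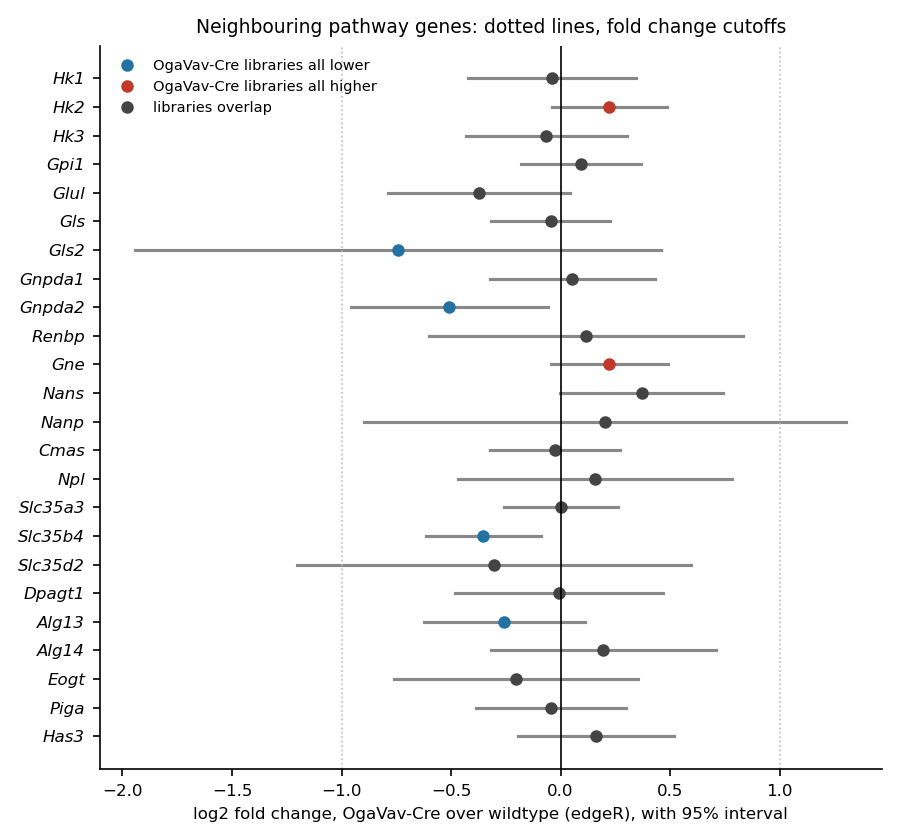
Log2 fold change of OgaVav-Cre over wildtype (edgeR) with 95% intervals for the 24 tested genes of the wider pathway, with dotted lines at the fold change cutoffs and points colored by whether the libraries of both genotypes overlap. The values run from -0.74 (Gls2, at 0.426 CPM in OgaVav-Cre cells) to 0.37, and no gene was called.

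Upstream of the amidotransferase, the hexokinase Hk1 was at 152 ± 28.0 CPM in OgaVav-Cre and 157 ± 16.4 CPM in wildtype cells (SD, n = 3), a log2 fold change of -0.04. Hk2, the inducible hexokinase, was at 39.0 ± 1.40 against 33.4 ± 0.650 CPM, a log2 fold change of 0.22 with an adjusted p of 0.520 in the edgeR fit. Gpi1, which supplies the fructose phosphate used by Gfpt1, was at 249.96 ± 11.4 against 234 ± 14.4 CPM. Gnpda1, the paralog of Gnpda2, was at 23.8 ± 3.90 against 22.9 ± 1.47 CPM and had a log2 fold change of 0.05. Renbp, which interconverts GlcNAc and N-acetylmannosamine, was at 12.5 ± 3.76 against 11.5 ± 3.90 CPM.

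On the branch to sialic acid, Gne, which turns UDP-GlcNAc into N-acetylmannosamine and so opens the branch, was at 58.3 ± 4.30 CPM in OgaVav-Cre and 49.99 ± 3.01 CPM in wildtype cells. On the log2 scale Gne differed by 0.22, with an adjusted p of 0.524 in the edgeR fit. Cmas, which activates sialic acid, had a log2 fold change of -0.02 (SE 0.128). Slc35a3, a Golgi carrier of UDP-GlcNAc, was at 54.9 ± 3.08 against 54.8 ± 3.597 CPM. Among other users of the donor, Dpagt1, the first enzyme of N-glycan assembly, had a log2 fold change of -0.0057 (SE 0.204). Eogt, which places O-GlcNAc on extracellular domains and is distinct from Ogt, had one of -0.20 (SE 0.240). Piga, of GPI anchor synthesis, had one of -0.04 (SE 0.148). None of these passed the test.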

How the data were processed

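RNA-Seq of sorted LSK cells from 6 mice was analyzed, with genotype and replicate number taken from the labels. The authors made poly(A) libraries with a NEBNext Ultra kit and ran them as single-end 50 bp reads. Mapping was to mm9, and Genomatix software gave the summary of reads at each locus. The submitters' processing notes name CASAVA 1.8.2. Versions of the aligner, the counting and the annotation are not given in the sources used here. The deposited table holds raw counts for each of 53445 loci and library, and RPKM that the authors made from the counts, the locus length and 1 divisor for each library. Its columns of the authors' fold changes and p-values, and of Genomatix normalized expression, were not used. Overlapping loci were kept as listed. Of 6419 loci named by an Ensembl number, 6406 were matched to a symbol, and Eogt was matched through a RefSeq synonym.

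Counts were tested in R 4.3.3 with edgeR 4.0.16 (TMM, filterByExpr, glmQLFit and glmQLFTest) and genotype as the only term. Benjamini-Hochberg adjustment covered the 22032 loci kept. Standard errors and 95% intervals come from the F statistic and its degrees of freedom. The biological coefficient of variation was 0.308. Library totals were 19318056 to 27064389 reads, so that 3 reads are 0.111 to 0.155 CPM before TMM scaling. The labels tie each library to 1 mouse and describe no molecular identifiers. The test was checked on simulated data. Alternatives were DESeq2 1.42.0, limma-voom and limma-trend on RPKM (limma 3.58.1, pseudocounts 0.1 and 1), other scalings and filters, a block for the replicate number, omission of each library in turn, a covariate for the immunoglobulin share, and, added after seeing the data, the summed level of 7 lineage-positive markers as a covariate. Promoters were read from RefSeq windows on GRCm38.p6 and exons from GENCODE vM1 on mm9, with Python 3.11.15 and pandas 2.3.3, and figures were drawn with matplotlib 3.10.9.

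The 10 genes, the pathway list, the markers and the tests were chosen with earlier results of these data known. Named were the 10 genes, every locus that shares a symbol or span with one of them, and of the pathway list Hk1, Hk2, Gpi1, Gnpda1, Renbp, Gne, Cmas, Slc35a3, Dpagt1, Eogt and Piga. Of the genes first listed for the pathway and the markers, 3 are not reported here and were left out of the counts and sums. Other genes are marked as chosen after their values were seen or named because a count was small.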

Additional observations from a re-analysis of the deposited data

How the results depend on the processing

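Under all 19 alternatives 1 of the 10 genes was called lower and 0 were called higher, and between 2 and 4 had an unadjusted p below 0.05. Mgea5 was called in each, with a log2 fold change between -5.13 and -3.56, the latter on RPKM with a pseudocount of 1. Ogt lay between -0.87 and -0.57 with an adjusted p of 0.0816 to 0.862. Pgm3 changed sign with DESeq2 (0.0075), with RLE size factors (0.0069) and with the immunoglobulin share as a covariate (0.0044), and ran from -0.079 to 0.050 with 1 library left out. Uap1 changed sign on library totals alone (-0.046) and ran from -0.038 to 0.14 with 1 library left out. The cause was not tested.

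The counts over all loci moved more than those of the 10 genes. Against 6 loci lower and 1 higher, DESeq2 called 82 and 34, the absence of a filter gave 17 and 4, the immunoglobulin share as a covariate 10 and 7, and the lineage-positive marker level 8 and 6. No locus was called higher (0) by limma-voom, on library totals alone, with at least 10 reads in every library, or on RPKM with either pseudocount. With 1 library left out, 3 to 6 loci were lower (3 in the absence of wildtype replicate 1 and of either OgaVav-Cre replicate 1 or 2) and 0 to 3 higher (0 in the absence of wildtype replicate 3 and of either OgaVav-Cre replicate 1 or 2, and 3 in that of OgaVav-Cre replicate 3 and of wildtype replicate 2, each left out alone).

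With the replicate number as a block, 4 loci were called lower and 2 higher. The deviations of same-numbered libraries from their genotype means correlated at -0.081, 0.26 and 0.32 for numbers 1, 2 and 3. Of the 3 OgaVav-Cre libraries, 2 correlated best with the wildtype library of their own number. The labels give only the number, so that these values do not settle whether same-numbered libraries were handled together. The block changed no call among the 10 genes.

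For Ogt and Mgea5 in wildtype cells the spread between mice exceeded the counting error. Levels were read per locus, so a change confined to 1 transcript of a gene could not be seen.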
